A study of Homo sapiens with 12 samples.

Results

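The levels of 10 epithelial junction genes were followed in FaDu and Cal27 cells and in derivatives of both lines that had acquired resistance to afatinib or erlotinib. The genes were CLDN1, CLDN3, CLDN4, CLDN7, EPCAM, OCLN, MARVELD3, TJP1, F11R and CGN. They were found by gene symbol among the 58051 gene identifiers of the deposited count tables, and all 10 passed the filter on low counts in every fit. FaDu is a hypopharyngeal and Cal27 a tongue squamous cell carcinoma line, both labelled wild type in genotype. Poly(A)-selected RNA was sequenced from 12 libraries, 2 for each of 6 groups: FaDu parental, FaDu AfaR (afatinib-resistant), FaDu ErlR (erlotinib-resistant), Cal27 parental, Cal27 AfaR and Cal27 ErlR. Afatinib is a covalent inhibitor of the ERBB receptor family and erlotinib a reversible inhibitor of EGFR. Each resistant group was derived from its parental line under stepwise rising drug, so each drug is represented by 1 resistant population per line, and the 2 libraries of a group are replicates of that population. Per the study's methods, resistant stocks were kept in drug and grown without it for a period before experiments. Selection, drug exposure and its withdrawal therefore cannot be told apart.

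Tight junctions seal the space between neighbouring epithelial cells near their apical side. Claudins are membrane proteins with 4 passes through the membrane whose outer loops form the strands of the junction, and which claudins a cell makes sets which ions its barrier lets through. Occludin (OCLN) and MARVELD3 belong to a related family of junction membrane proteins, and F11R (junctional adhesion molecule A) is an adhesion protein of the immunoglobulin type. TJP1 (ZO-1) and cingulin (CGN) are cytoplasmic proteins that tie the strands to actin and myosin. EPCAM is an epithelial membrane glycoprotein that binds and stabilises claudins, CLDN7 and CLDN1 among them. In stratified squamous epithelium CLDN1 is a principal barrier claudin, while CLDN3, CLDN4 and CLDN7 are better known from simple and glandular epithelia.

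The libraries held 16334937 to 23399259 counts on genes, with a median of 16584450. Levels are given as CPM, a gene's share of its library's counts scaled over the 12 libraries by TMM (a trimmed mean of gene ratios), and as TPM, which also divides by gene length, where different genes are set side by side. Changes are log2 fold changes from edgeR's quasi-likelihood test with Benjamini-Hochberg adjustment over all genes tested, 15092 in FaDu and 15269 in Cal27. A gene passed the test at an adjusted p under 0.05, and errors of fold changes are standard errors (SE). All 9 squamous epithelial markers checked, among them KRT5, TP63 and CDH1, had counts in every library. Their summed level was 6436 to 13339 CPM in the FaDu libraries, 3969 to 5108 CPM in Cal27 parental, 5048 to 5170 CPM in Cal27 ErlR and 1051 to 1159 CPM in Cal27 AfaR.

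**Figure D1:**
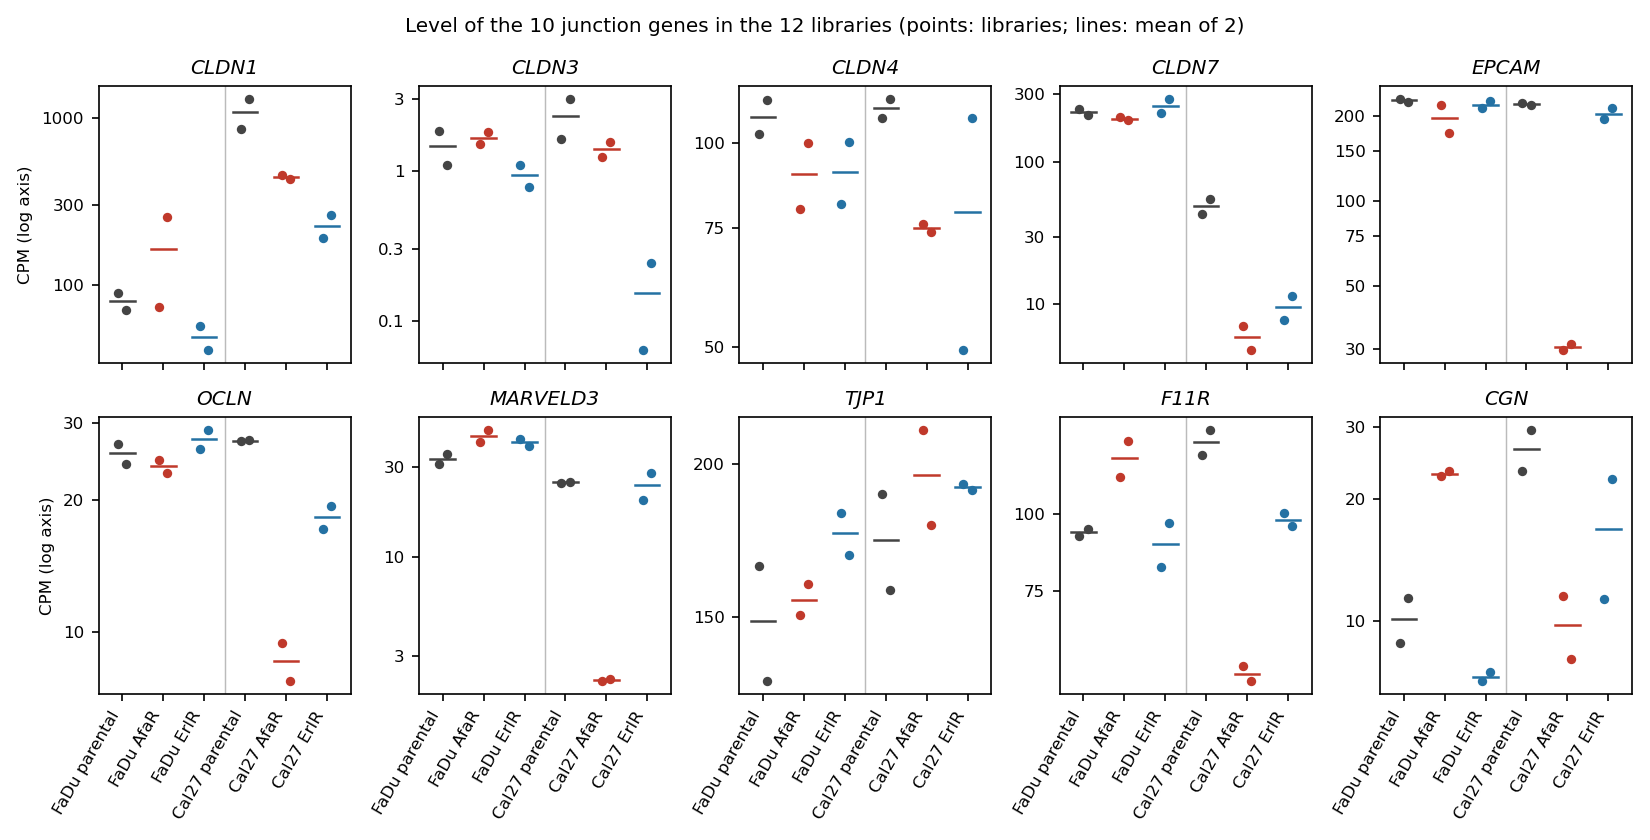
CPM of each of the 10 genes on a log axis in the 12 libraries, by group; points are libraries, lines are means of 2, and the grey line separates FaDu from Cal27. EPCAM lay between 173 and 229.6 CPM in 10 libraries and at 29.7 and 31.3 CPM in Cal27 AfaR, whereas TJP1 stayed between 133 and 213 CPM in all 12.

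The genes lie on 8 chromosomes, and their promoter sequences were examined because ZEB and SNAI repressors bind the E-box CACCTG and grainyhead factors (GRHL) bind a motif with the core AACNNGTT. RefSeq windows of 300 bases (250 before the start, 50 after it, GRCh38.p14) were found for 7 of the 10 genes: CLDN1, CLDN3, CLDN4, CLDN7, OCLN, TJP1 and CGN. The E-box, searched on both strands, occurred in 20.6% of all 35116 windows, and AACNNGTT in 3.52%. One start of CLDN7 had 5 E-boxes in its window, at -174, -135, -20, -9 and +6 from the start, a number reached in 33 windows of 35116 (0.0940%). The other CLDN7 start, the CLDN1 window and the CLDN4 window had none. OCLN, TJP1 and CLDN3 each had at least 1 window with an E-box, as did 24.1% of all 27305 genes with a window. For TJP1 this was the window printed below, and its other windows had no E-box. CGN had AACNNGTT at -27, a motif found in 4.36% of those genes. A match is a description of the sequence and no binding was measured. The sequences below show the paired E-boxes of CLDN7, a gene that fell in both Cal27 models, the CLDN1 sequence without an E-box, a gene that also fell in both, the TJP1 sequence with an E-box, a gene that passed in no model, and the CGN sequence with the grainyhead-type motif. Capitals mark the motif, all are written 5′ to 3′ on the strand of the gene, and stretches inside annotated exons were left out except for 30 bases of CLDN7.
CLDN7 (chr17:7262479-7262508, minus strand): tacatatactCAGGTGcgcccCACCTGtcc
CLDN1 (chr3:190322476-190322696, minus strand): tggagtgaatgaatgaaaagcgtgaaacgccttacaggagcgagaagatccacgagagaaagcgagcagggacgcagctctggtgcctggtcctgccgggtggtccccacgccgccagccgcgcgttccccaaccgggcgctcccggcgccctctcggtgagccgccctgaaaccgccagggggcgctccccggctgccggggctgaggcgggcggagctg
TJP1 (chr15:29969050-29969299, minus strand): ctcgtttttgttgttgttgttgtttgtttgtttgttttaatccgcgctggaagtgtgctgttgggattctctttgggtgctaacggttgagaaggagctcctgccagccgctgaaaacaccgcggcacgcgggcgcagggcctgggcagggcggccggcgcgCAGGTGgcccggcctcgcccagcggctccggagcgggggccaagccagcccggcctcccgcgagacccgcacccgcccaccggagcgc
CGN (chr1:151511137-151511386, plus strand): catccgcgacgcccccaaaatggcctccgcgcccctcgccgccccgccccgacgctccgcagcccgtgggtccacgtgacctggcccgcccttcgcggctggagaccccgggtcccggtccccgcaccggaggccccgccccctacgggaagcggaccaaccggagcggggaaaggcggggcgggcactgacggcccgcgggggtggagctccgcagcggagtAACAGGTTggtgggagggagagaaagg

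The 2 parental lines carried different claudins at similar EPCAM. CLDN1 (chr3:190305701-190322475) was at 89.1 and 70.7 CPM in FaDu parental and at 860.4 and 1318 CPM in Cal27 parental. CLDN7 (chr17:7259903-7263983) was at 236 and 214 CPM in FaDu parental and at 43.2 and 55.0 CPM in Cal27 parental. Each gene therefore separated the lines without overlap, in opposite directions. The difference of Cal27 from FaDu parental was 3.77 ± 0.45 (SE) for CLDN1 (adjusted p = 1.95e-05) and -2.20 ± 0.20 for CLDN7 (adjusted p = 1.99e-06). Of the 10 genes 3 were higher in Cal27 parental (CLDN1, CGN and F11R) and 2 lower (CLDN7 and MARVELD3), beside 28.7% of all 16240 genes that were higher and 26.8% lower, 55.6% in all. A share of 5 in 10 is near that background.

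CGN (chr1:151510510-151538692) was at 8.84 and 11.4 CPM in FaDu parental and at 23.4 and 29.6 CPM in Cal27 parental, a difference of 1.39 ± 0.28 (adjusted p = 0.00106). F11R (chr1:160995211-161021348), which shares 36.6% of its exon bases with ENSG00000270149 on the same strand (1.18 CPM at most), differed by 0.49 ± 0.12 (adjusted p = 0.00387). CLDN7 shares 10.8% of its exon bases with ENSG00000262302 on the same strand, which had no count in any library. Low levels of such overlapping genes do not show how reads in the shared bases were assigned, and this was not examined. MARVELD3 (chr16:71626161-71642114) differed by -0.42 ± 0.16 (adjusted p = 0.0466), which became 0.17 when libraries were scaled on the ERCC spike-in RNAs, and the call was lost when any 1 of the 4 parental libraries was left out, with adjusted p from 0.0583 to 0.207. EPCAM (chr2:47345158-47387601) was at 229.6 and 223 CPM in FaDu parental and at 221 and 218 CPM in Cal27 parental. Its difference was -0.05, with a 95% interval from -0.30 to 0.21 (0.54 with ERCC scaling, which moved the median of all genes to 0.62). The differences of OCLN (0.10), TJP1 (0.22), CLDN4 (0.04) and CLDN3 (0.66) also did not pass. The lines were grown in different media, EMEM for FaDu and DMEM for Cal27, so line and medium cannot be told apart.

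Per length, the claudin mRNA of the lines had a different make-up. The annotation held 24 claudin genes, of which 3 had no count in any library, which allows up to 0.184 CPM in the shallowest, and 13 stayed under 1 TPM in every library. In FaDu parental CLDN7 made up 62.8% of the summed claudin TPM (63.4 and 62.1% in the 2 libraries), CLDN4 16.2% and CLDN1 15.1%. In Cal27 parental CLDN1 made up 81.6% (80.0 and 83.3%), CLDN4 6.80% and CLDN7 5.50%. The summed claudin level was 538 and 491 TPM in FaDu parental and 1154 and 1678 TPM in Cal27 parental. The ratio of EPCAM to CLDN7 in TPM was 0.962 and 1.03 in FaDu parental and 5.07 and 3.91 in Cal27 parental.

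**Figure D2:**
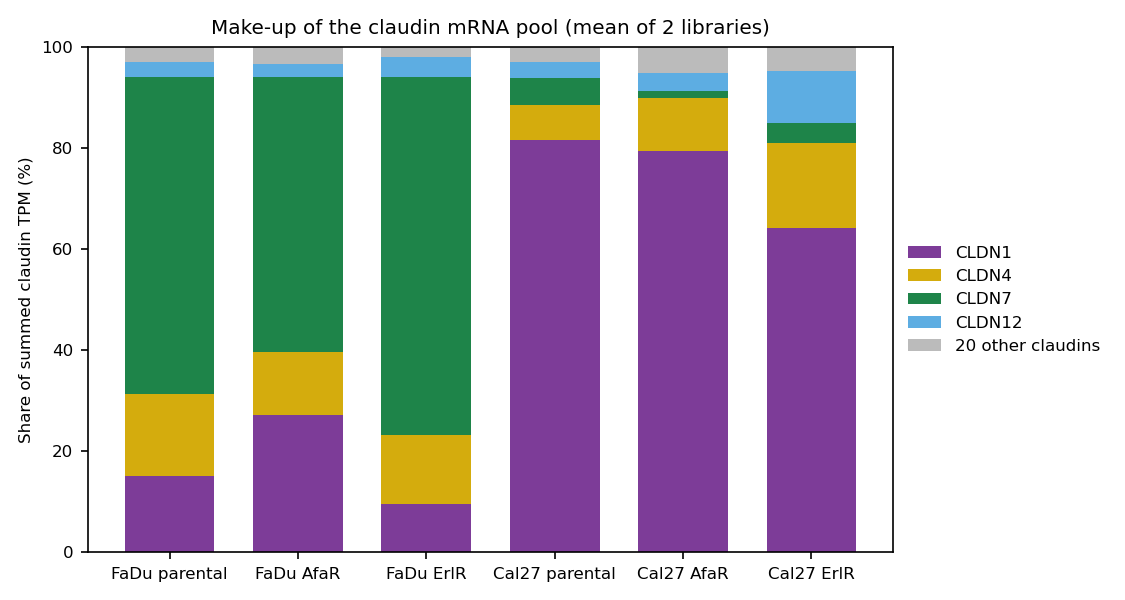
Stacked bars give the share of each claudin in the summed claudin TPM (percent, mean of 2 libraries) for the 6 groups. CLDN7 took 54.4 to 70.9% in the 3 FaDu groups and CLDN1 64.1 to 81.6% in the 3 Cal27 groups.

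The question asked of the resistant models was which of these genes differed from the parental cells of the same line. In Cal27 AfaR, 7 of the 10 genes fell and none rose, beside 18.2% of all genes tested that fell and 19.5% that rose. The median log2 fold change of the 10 was -1.36, against 0.00 over all genes. All 7 fell by more than 1 on the log2 scale, as did 8.06% of all genes. The 10 genes were chosen with earlier results of these data known, so these counts and those for the other models are descriptions. Those 7 comprised claudins, the claudin partner EPCAM, both occludin family members of the list, the adhesion molecule F11R and cingulin. In bulk RNA, fewer cells of a type and less RNA per cell cannot be told apart.

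MARVELD3, a junction membrane protein of the occludin family, was at 24.8 and 25.0 CPM in Cal27 parental and at 2.21 and 2.26 CPM in Cal27 AfaR. Its level in Cal27 AfaR was 9.00% of that in parental cells, a change of -3.47 ± 0.23 (adjusted p = 9.16e-06). Of its exon bases 16.6% are shared with PHLPP2 on the opposite strand (8.17 to 23.8 CPM), and the strand setting of the counting is not given in the sources used here. OCLN (chr5:69492292-69558104) fell from 27.3 and 27.4 CPM to 9.45 and 7.72 CPM, a change of -1.67 ± 0.18 (adjusted p = 0.000136). For both genes the Cal27 AfaR libraries were the lowest of all 12.

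EPCAM was at 29.7 and 31.3 CPM in Cal27 AfaR, 13.9% of Cal27 parental. The change was -2.84 ± 0.13 (adjusted p = 2.23e-06), and leaving out any 1 of the 4 libraries moved it only between -2.87 and -2.81. CLDN7, whose protein EPCAM binds, was at 7.02 and 4.76 CPM, 12.0% of Cal27 parental and a change of -3.05 ± 0.26 (adjusted p = 3.67e-05). The ratio of EPCAM to CLDN7 in TPM was 4.19 and 6.50 in Cal27 AfaR, a range that overlapped that of Cal27 parental.

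CLDN1 was at 456 and 434 CPM in Cal27 AfaR, 40.8% of parental, a change of -1.29 ± 0.22 (adjusted p = 0.00177). Even so it remained above every FaDu library, the highest of which held 254 CPM, and still made up 79.4% of the claudin TPM. F11R was at 56.6 and 53.6 CPM, a change of -1.24 ± 0.13 (adjusted p = 9.46e-05). CGN was at 11.5 and 8.07 CPM, a change of -1.43 ± 0.31 (adjusted p = 0.00628). The call for CGN was lost without Cal27 AfaR replicate 2 (adjusted p = 0.0585), while the other 6 calls held with each of the 4 libraries left out.

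CLDN4, CLDN3 and TJP1 did not pass in Cal27 AfaR. CLDN4 (chr7:73799542-73832693), a claudin of tight epithelia, was at 109 and 116 CPM in Cal27 parental and at 76.0 and 73.8 CPM in Cal27 AfaR, a change of -0.59 with a 95% interval from -1.23 to 0.05. CLDN3 (chr7:73768997-73770270), which lies 29271 bases from CLDN4, was low throughout, with 28 and 52 counts in Cal27 parental and 23 and 27 in Cal27 AfaR. TJP1 (chr15:29699367-29968865) was at 189 and 158 CPM in Cal27 parental and at 213 and 178 CPM in Cal27 AfaR. Its change was 0.18 with a 95% interval from -0.15 to 0.50, so a fall of the size seen for EPCAM lay outside the interval.

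In Cal27 ErlR, 5 of the 10 genes fell and none rose, beside 15.3% of all genes that fell and 12.3% that rose. The median of the 10 was -0.57, against -0.03 over all genes. The genes that fell by more than 1 on the log2 scale were 3 claudins, CLDN1, CLDN3 and CLDN7, beside 9.92% of all genes. CLDN1 was at 190.1 and 261 CPM, 20.7% of parental, a change of -2.30 ± 0.23 (adjusted p = 0.00023). CLDN7 was at 7.79 and 11.5 CPM, 19.6% of parental, a change of -2.37 ± 0.25 (adjusted p = 0.000337). Both genes lay below both parental libraries in both replicates, and both calls held with any 1 library left out.

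CLDN3 had 1 and 4 counts in the Cal27 ErlR libraries and 28 and 52 in Cal27 parental. Summed over the libraries this was 6.70% of the parental level, with an exact 95% interval from 2.12 to 16.3% that covers counting error only. The fitted change was -3.87 ± 0.66 (adjusted p = 0.00308). Per length, CLDN3 had the lowest level of the 10 genes in Cal27 parental, at 7.14 ± 2.99 TPM (SD, n = 2).

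OCLN, at 17.2 and 19.4 CPM, changed by -0.60 ± 0.17 (adjusted p = 0.0286). F11R, at 100.2 and 95.4 CPM, changed by -0.44 ± 0.12 (adjusted p = 0.0263). Both calls were lost when any 1 of the 4 libraries was left out, with adjusted p from 0.0561 to 0.149 for OCLN and from 0.0662 to 0.209 for F11R. Without these 2 genes the calls were those of the 3 claudins.

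The other 5 genes did not pass in Cal27 ErlR. EPCAM was at 194 and 212 CPM, a change of -0.14 with a 95% interval from -0.41 to 0.13, and its ratio to CLDN7 in TPM was 24.6 and 18.3. MARVELD3 was at 19.9 and 28.0 CPM, around the parental 24.8 and 25.0 CPM. TJP1 changed by 0.12. CGN was at 11.3 and 22.4 CPM and CLDN4 at 49.5 and 109 CPM, and for both genes replicate 1 was the low library. Without replicate 2 these genes would have passed, with -1.22 for CGN (adjusted p = 0.0118) and -1.18 for CLDN4 (adjusted p = 0.00132).

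The 2 Cal27 models were compared directly, since both share the parental libraries. Of the 10 genes 4 were lower in Cal27 AfaR than in Cal27 ErlR and 2 higher, beside 23.2% and 26.5% of all genes. The difference was -2.71 ± 0.13 for EPCAM (adjusted p = 1.43e-06) and -3.39 ± 0.23 for MARVELD3 (adjusted p = 7.37e-06). OCLN (-1.06 ± 0.18) and F11R (-0.80 ± 0.12) were also lower in Cal27 AfaR, with adjusted p of 0.00113 and 0.000743. CLDN1 (1.01 ± 0.22, adjusted p = 0.00434) and CLDN3 (3.14 ± 0.69, adjusted p = 0.00452) were lower in Cal27 ErlR. The difference for CLDN7 was -0.68, with a 95% interval from -1.27 to -0.09 (adjusted p = 0.0556). Against parental cells, 4 genes fell in both Cal27 models (CLDN1, CLDN7, OCLN and F11R). The Cal27 ErlR calls for OCLN and F11R were lost when any 1 of the 4 libraries compared was left out. Sharing the parental libraries favours such overlap, and its share over all genes is not given, so the count is a description. Another 3 passed in Cal27 AfaR and not in Cal27 ErlR (EPCAM, MARVELD3 and CGN), and CLDN3 passed in Cal27 ErlR and not in Cal27 AfaR. Of these 4 genes that passed in only 1 of the 2 comparisons, the direct comparison separated EPCAM, MARVELD3 and CLDN3, and not CGN (-0.75, adjusted p = 0.0724).

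**Figure D3:**
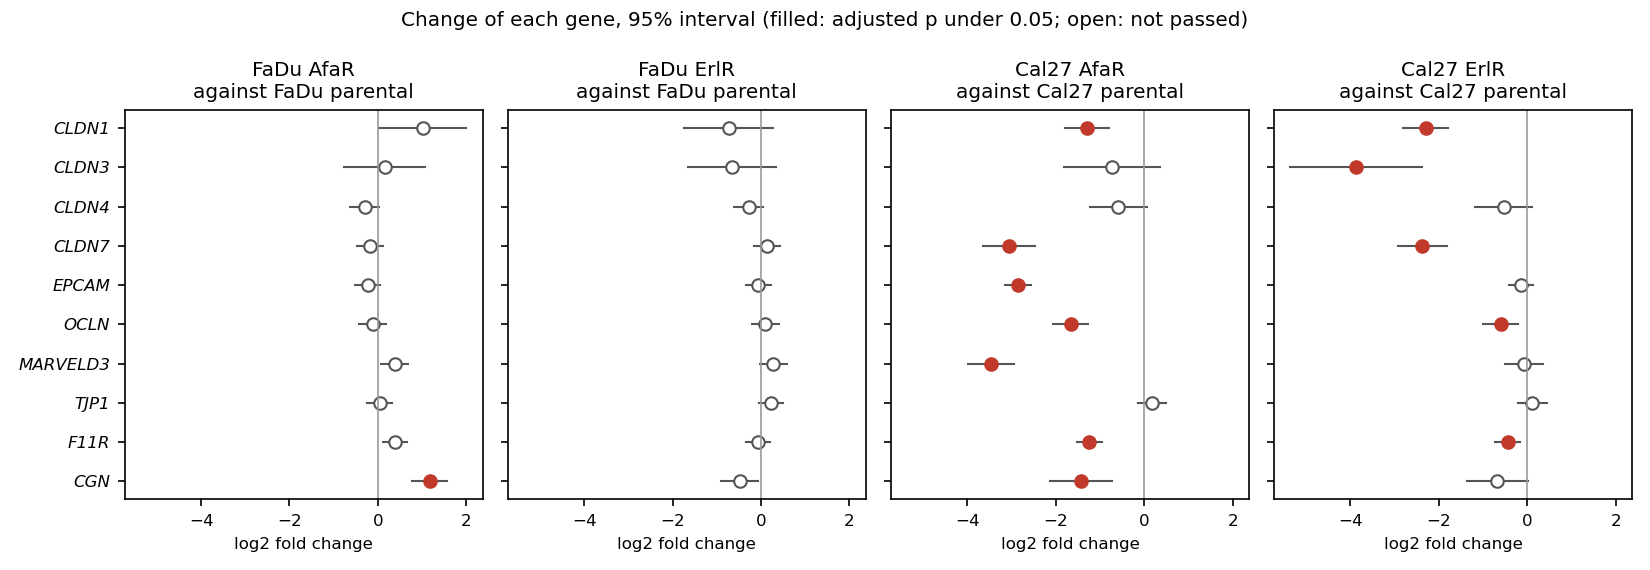
log2 fold change of each of the 10 genes in the 4 resistant models against the parental cells of the same line, with 95% intervals; filled points passed at an adjusted p under 0.05. In Cal27 AfaR 7 genes and in Cal27 ErlR 5 genes lie below 0 as filled points, while in FaDu CGN in AfaR is the only filled point.

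In FaDu AfaR 1 of the 10 genes rose and none fell, beside 10.4% of all genes that rose and 7.49% that fell. The gene was CGN, at 22.8 and 23.3 CPM against 8.84 and 11.4 CPM in FaDu parental, 2.28 times the parental mean. Its change was 1.17 ± 0.18 (adjusted p = 0.00556). The call was lost without FaDu parental replicate 1 (adjusted p = 0.0628), and the change stayed between 0.99 and 1.36 with each library left out.

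CLDN1 in FaDu AfaR rested on 1 library. It was at 73.5 CPM in replicate 1, within the range of FaDu parental, and at 254 CPM in replicate 2. The change of 1.01 ± 0.44 did not pass (adjusted p = 0.134), and it was -0.14 without replicate 2 and 1.64 without replicate 1. The same library carried the claudin make-up of this group, with CLDN1 at 15.6% of the claudin TPM in replicate 1 and 38.7% in replicate 2.

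F11R (0.38 ± 0.12, adjusted p = 0.0581) and MARVELD3 (0.39 ± 0.14, adjusted p = 0.0773) had levels in FaDu AfaR above both parental libraries and did not pass. EPCAM was at 218 and 173 CPM in FaDu AfaR, a change of -0.23 with a 95% interval from -0.51 to 0.05. CLDN7 was at 207 and 197 CPM, a change of -0.17 with an interval from -0.46 to 0.12. Falls of the size seen in Cal27 AfaR were outside both intervals.

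In FaDu ErlR no gene of the 10 passed edgeR's test, beside 2.58% of all genes that rose and 1.60% that fell, 4.18% in all. At an unadjusted p under 0.05 there was 1, CGN (-0.49, unadjusted p = 0.0289), and DESeq2 also called 0, whereas with ERCC scaling, which moved the median of all genes by 0.49, 6 passed. CGN was at 7.10 and 7.45 CPM, CLDN7 at 220.1 and 280.3 CPM and EPCAM at 212 and 225 CPM. CLDN1, at 56.6 and 40.3 CPM, was below both parental libraries, with a change of -0.73 and an interval from -1.74 to 0.27. FaDu AfaR and FaDu ErlR differed in CGN (1.66 ± 0.19, adjusted p = 0.00198), in CLDN1 (1.75 ± 0.45, adjusted p = 0.0323) and in F11R (0.46 ± 0.12, adjusted p = 0.0354), all higher in AfaR, beside 8.06% of all genes that were higher and 7.65% lower. The calls for CLDN1 and F11R were lost with 3 of the 4 libraries left out in turn (without FaDu AfaR replicate 2 and without either FaDu ErlR library), with adjusted p up to 0.166 and 0.155.

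Whether the populations resistant to the same drug had different changes in the 2 lines was tested as an interaction over all 12 libraries. For afatinib, 7 of the 10 genes had a lower change in Cal27 than in FaDu (in FaDu AfaR 3 of the 7, CLDN7, EPCAM and OCLN, had values below 0), beside 10.5% of all genes with a lower and 8.00% with a higher value in Cal27, and they were the 7 that fell in Cal27 AfaR. For erlotinib these were 3 genes, CLDN3, CLDN7 and OCLN, beside 9.80% lower and 8.80% higher of all genes. The calls for CLDN3 and OCLN here, and for CLDN1 in the afatinib interaction, were each lost in some fits that left out 1 library. CLDN1 did not pass for erlotinib (-1.55 ± 0.58, adjusted p = 0.0842). TJP1 and CLDN4 passed in none of the 4 models and in neither interaction.

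Over the 12 libraries the order of EPCAM was FaDu parental, Cal27 parental, FaDu ErlR, Cal27 ErlR, FaDu AfaR and Cal27 AfaR, with means from 226 to 30.5 CPM. The 5 comparisons tested among the first 5 groups did not pass, although the libraries of the 2 parental groups did not overlap and Cal27 ErlR lay below both. FaDu AfaR, at 218 and 173 CPM, also lay below both FaDu parental libraries, at 86.5% of their mean. For CLDN7 the 3 FaDu groups came first, at 202 to 250.2 CPM, then Cal27 parental at 49.1 ± 8.38 CPM (SD, n = 2), Cal27 ErlR at 9.64 ± 2.61 CPM and Cal27 AfaR at 5.89 ± 1.60 CPM. CLDN7 had the widest range of group means among the 10 genes, 5.19 on the log2(CPM + 1) scale, and TJP1 the narrowest, 0.39.

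The genes whose pattern over the 12 libraries was most like EPCAM, by the root mean square difference of centred log2(CPM + 1) among 10571 genes, were SERINC2 (0.191, Pearson r 0.983), ENSG00000261804 (0.198) and MAP7 (0.210). SERINC2, a serine incorporator family member, had 553 ± 9.26 CPM in Cal27 parental and 74.8 ± 8.01 CPM in Cal27 AfaR. Among the other junction genes, MARVELD3 ranked 52 and OCLN 103 in likeness to EPCAM, F11R 620 and CLDN7 9557. This measure depends on the size of a gene's changes as well as on their direction. CLDN7 had a Pearson r of 0.663 with EPCAM, whereas TJP1, at r -0.470, ranked 6095. Most like CLDN7 were BARX2 (0.502), a homeobox factor, ALDH1A3 (0.666) and SHANK2 (0.701), and BARX2 was at 20.7 ± 3.67 CPM in FaDu parental and 2.07 ± 1.03 CPM in Cal27 parental. Libraries of the same line or group are not independent points, so these values are descriptions.

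Genes beside the 10 on the chromosome were compared with them. For each gene the 10 nearest tested genes on either side were taken. In Cal27 AfaR the median change of these 20 neighbours was 0.09 for CLDN7, 0.06 for EPCAM, 0.20 for MARVELD3, 0.10 for F11R and 0.08 for CGN, and -0.24 for OCLN, where 7 of the 20 fell beside 18.2% of all genes. For CLDN1 the neighbours had a median of 0.43 in Cal27 AfaR, where 10 rose beside 19.5% of all genes, and 1.03 in the comparison of the parental lines, where 9 were higher in Cal27 beside 28.7% of all genes. In FaDu AfaR the CLDN1 neighbours had a median of 0.57, with 9 higher and 1 lower, beside 10.4% and 7.49% of all genes. Between the parental lines the MARVELD3 neighbours had a median of -0.50. Of these, 12 were lower in Cal27 and 2 higher, beside 26.8% and 28.7% of all genes. CLDN7 neighbours in Cal27 ErlR had a median of -0.22, with 6 of 20 lower beside 15.3% of all genes. The CGN neighbours in FaDu ErlR had a median of -0.47, with 4 of 20 lower and 0 higher, beside 1.60% and 2.58% of all genes. CGN itself changed by -0.49 there and did not pass.

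The wider tight junction pathway was described by 81 further genes in 5 lists. In Cal27 AfaR 16 of the 61 tested rose and 24 fell, in Cal27 ErlR 7 rose and 12 fell, in FaDu AfaR 10 of 63 rose and 3 fell, and in FaDu ErlR 3 rose and 1 fell. The shares of all genes that rose and fell were 19.5% and 18.2% in Cal27 AfaR, 12.3% and 15.3% in Cal27 ErlR, 10.4% and 7.49% in FaDu AfaR, and 2.58% and 1.60% in FaDu ErlR. The counts of the pathway genes in Cal27 ErlR were near these shares. The median over the pathway genes was -0.22 in Cal27 AfaR, -0.10 in Cal27 ErlR, 0.04 for FaDu AfaR and 0.07 for FaDu ErlR. The lists overlapped neither each other nor the 10 genes.

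Among the other 20 claudins, 6 were tested in each line. In Cal27 AfaR 2 rose and 2 fell, beside 19.5% and 18.2% of all genes, the named ones being CLDN16 (-1.69 ± 0.39), a claudin known from magnesium reabsorption in the kidney, and CLDN12 (-1.08 ± 0.18). The start of CLDN16 (chr3:190322541-190412143, plus strand) lies close to that of CLDN1 (chr3:190305701-190322475, minus strand). CLDN1 changed by -1.29 in Cal27 AfaR and by -2.30 in Cal27 ErlR. CLDN12 was at 63.8 and 85.5 CPM in Cal27 parental, 38.1 and 32.3 CPM in Cal27 AfaR and 70.1 and 58.7 CPM in Cal27 ErlR. In Cal27 ErlR CLDN16 fell by 3.57 on the log2 scale, and CLDN12 took 10.4% of a claudin sum that was itself 280.2 and 414 TPM, below both parental libraries. In Cal27 parental CLDN12 was higher than in FaDu parental by 1.41 ± 0.18 (adjusted p = 2.93e-05).

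Of 12 other junction membrane proteins 9 were tested in Cal27, and in Cal27 AfaR 3 rose and 4 fell, beside 19.5% and 18.2% of all genes. MARVELD2 (tricellulin), which marks the corners where cells meet, was at 36.2 and 33.2 CPM in Cal27 parental and 15.2 and 17.5 CPM in Cal27 AfaR (-1.08 ± 0.15, adjusted p = 0.000689). CRB3, the apical polarity protein Crumbs homolog, fell from 18.4 ± 1.09 to 2.30 ± 0.276 CPM (SD, n = 2), a change of -3.00 ± 0.22 (SE). ILDR2, of the angulin family, rose from 0.874 and 0.700 to 15.4 and 15.9 CPM (4.30 ± 0.29). In Cal27 ErlR 1 of the 9 fell and none rose, beside 15.3% and 12.3% of all genes. CXADR, an adhesion protein and virus receptor, was higher in Cal27 than in FaDu parental by 3.01 ± 0.23.

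All 22 other scaffolds and polarity proteins were tested, and in Cal27 AfaR 5 rose, 4 fell and 13 did not pass, near the 19.5% and 18.2% of all genes that rose and fell. PATJ, a Crumbs complex scaffold, fell by 1.28 on the log2 scale and MAGI1, a membrane-associated guanylate kinase, rose by 2.53. In Cal27 ErlR 4 rose and 3 fell, also near the 12.3% and 15.3% of all genes. TJP3 (ZO-3) went from 4.08 and 23.0 CPM in Cal27 parental to 0.128 and 0.428 CPM in Cal27 ErlR (-5.59 ± 0.90), the parental libraries themselves being far apart. AMOTL1, an angiomotin family member, rose from 146 and 122 CPM to 335 and 297 CPM in Cal27 ErlR (1.21 ± 0.14) and also rose in FaDu ErlR (1.05 ± 0.17).

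EPCAM is cleaved at the cell surface, and matriptase (ST14) and prostasin (PRSS8) form a protease cascade that acts on EPCAM and is held in check by SPINT1. Of the 10 tested genes of this list 5 fell and 1 rose in Cal27 AfaR, beside 18.2% and 19.5% of all genes, and 4 fell and 1 rose in Cal27 ErlR, beside 15.3% and 12.3%. ST14 was at 129 and 147 CPM in Cal27 parental and 20.3 and 20.6 CPM in Cal27 AfaR (-2.75 ± 0.17). PRSS8 fell from 95.8 and 118 CPM to 22.1 and 20.4 CPM in Cal27 AfaR (-2.33 ± 0.19) and to 38.8 and 53.6 CPM in Cal27 ErlR (-1.23 ± 0.18). In FaDu AfaR PRSS8 rose from 5.97 and 12.0 CPM to 34.6 and 54.0 CPM (2.29 ± 0.31, adjusted p = 0.00363). SPINT1 fell in Cal27 AfaR (-1.47 ± 0.24).

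Regulators of epithelial junction genes were the list in which every gene tested passed in Cal27 AfaR, 5 rising and 9 falling of 14, beside 19.5% and 18.2% of all genes. This list was chosen with earlier results of these data known, so the count is a description only. The repressors ZEB1 (0.291 and 0.467 CPM to 15.4 and 16.4 CPM, 5.37 ± 0.36) and ZEB2 (1.81 and 1.63 CPM to 33.9 and 26.2 CPM, 4.12 ± 0.25) rose. OVOL1 (-4.21 ± 0.31), which represses mesenchymal genes, and GRHL1 (-4.01 ± 0.29), a grainyhead factor, fell. GRHL2, named because its motif is described above, went from 71.1 and 83.1 CPM to 9.61 and 10.2 CPM. In Cal27 ErlR 3 fell and 1 rose of the 14, beside 15.3% and 12.3% of all genes. ELF3 (-3.08 ± 0.43), GRHL1 (-1.01 ± 0.23) and SNAI1 fell and SNAI2 (1.73 ± 0.18) rose, whereas ZEB1, ZEB2 and GRHL2 did not pass. In FaDu AfaR 2 of 16 rose (KLF4 by 1.39 and TWIST1 by 1.24) and 2 fell, KLF5 (-1.46 ± 0.14) among them, beside 10.4% and 7.49% of all genes, and in FaDu ErlR the lowest adjusted p of the 16 was that of SNAI1 (0.0615).

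**Figure D4:**
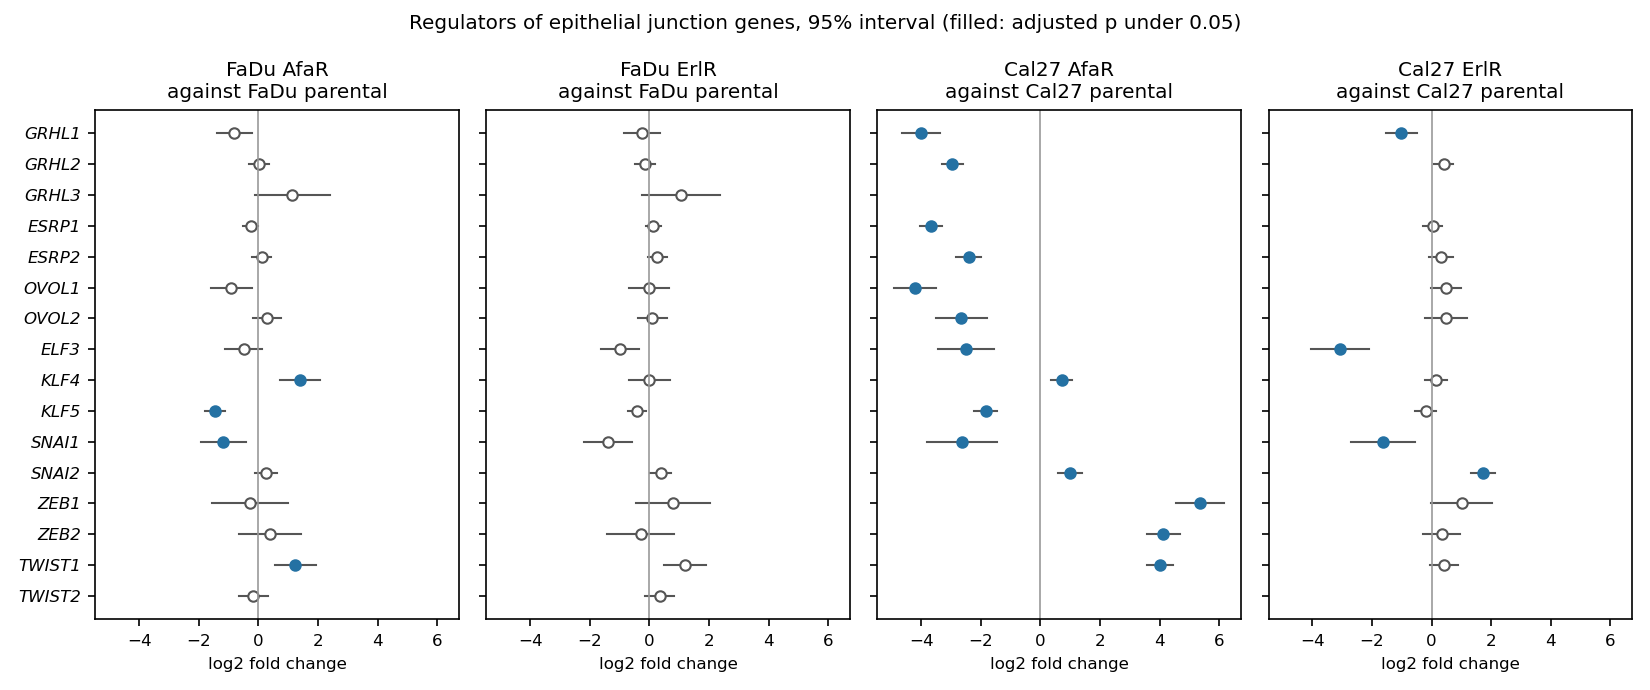
log2 fold change with 95% interval of the regulators of epithelial junction genes in the 4 resistant models; filled points passed at an adjusted p under 0.05, and genes without a point were not tested in that line. In Cal27 AfaR all 14 points are filled, while in FaDu ErlR none is.

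Markers of other cells were set beside these results. The 6 fibroblast markers summed to 283 to 290.1 CPM in Cal27 AfaR and 29.6 to 41.1 CPM in Cal27 parental. Of the 4 tested, COL1A1 (266 and 273 CPM in Cal27 AfaR, a change of 3.15) and PDGFRB (12.7 and 11.8 CPM, a change of 2.91) rose there, and COL1A2 (4.16 and 4.06 CPM) and COL3A1 (0.702 and 0.929 CPM) did not pass. DCN and PDGFRA were at 0.116 CPM or less in both Cal27 AfaR libraries and at 0.175 CPM or less in Cal27 parental. The 5 leukocyte markers summed to 209 to 228 CPM in FaDu AfaR and 20.8 to 28.2 CPM in FaDu parental, with LCP1 at 193 and 214 CPM in FaDu AfaR. All 3 tested had positive values there, LCP1 passing (3.93), while PTPRC (3.69 and 3.66 CPM against 2.14 and 2.86 CPM) and CD14 (12.6 and 10.9 CPM against 8.11 and 9.51 CPM) did not pass, and CD3E was at 0 in both groups. The 5 endothelial markers summed to 2.75 to 37.6 CPM, and in Cal27 parental and Cal27 AfaR, where the sums were 30.2 CPM or more, CDH5 gave 28.5 to 35.8 CPM. Of the 9 squamous markers 7 fell in Cal27 AfaR (median of the 9, -2.73) and in Cal27 ErlR 4 fell and 2 rose, beside 18.2% of all genes that fell in the former and 15.3% and 12.3% that fell and rose in the latter. The part of these changes in the junction gene results was not tested.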

How the data were processed

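RNA sequencing counts of 12 libraries were analysed. Per the labels and the submitters' processing notes, reads were trimmed with Trimmomatic 0.36, aligned to GRCh38 with STAR 2.5.2b and counted per gene with featureCounts of Subread 1.5.2. The deposited counts are raw whole numbers per gene, and 92 ERCC spike-in sequences were kept out of library sizes and tests. The authors also deposited normalised tables per pair of groups, which were not used here. TMM scaling, filterByExpr, glmQLFit and glmQLFTest of edgeR 4.0.16 (R 4.3.3) were applied per line to 6 libraries (3 residual degrees of freedom, biological coefficient of variation 14.5% in FaDu and 15.3% in Cal27), and to 12 libraries for comparisons between lines (16240 genes tested, 15.0%). Adjusted p-values are Benjamini-Hochberg over all genes tested. TPM used the exon length in the count tables. On simulated counts the test recovered 87% of genes changed by 1 and 100% of genes changed by 2 on the log2 scale in both lines, each out of 100 genes, with 12955 (FaDu) and 13462 (Cal27) genes in the simulation. The 2 libraries of a group are biological replicates per the study's methods, nothing says that they came from separate cultures, and p-values measure the spread between them. All libraries carry 1 batch date. DESeq2 1.42.0, other scalings, filters, sets of libraries, the replicate block and leaving out each library were the alternatives.

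Genes were also ranked by likeness to EPCAM and CLDN7, 3 each. The 10 genes and all lists were chosen with earlier results of these data known. The 10 genes were named in every comparison, and from the lists genes past an adjusted p of 0.05 and a log2 fold change of 1 with a mean of at least 5 CPM were named, at most 4 per list and comparison. SNAI1 and GRHL2 were named after their values were seen.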

Additional observations from a re-analysis of the deposited data

Results flagged for a closer look

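The populations resistant to the same drug were compared between the lines as an interaction (log2 fold change in Cal27 minus that in FaDu, edgeR over 12 libraries), and 10 results passed. For afatinib these were MARVELD3 (-3.87), CLDN7 (-2.90), EPCAM (-2.64), CGN (-2.62), CLDN1 (-2.33), F11R (-1.64) and OCLN (-1.57). The adjusted p ranged from 1.91e-06 for EPCAM and MARVELD3 to 0.0153 for CLDN1, whose call was lost without FaDu parental replicate 2 or Cal27 AfaR replicate 2 (adjusted p up to 0.0615). For CGN the 2 resistant groups had moved in opposite directions, up in FaDu AfaR and down in Cal27 AfaR. For erlotinib these were CLDN3 (-3.20), CLDN7 (-2.50) and OCLN (-0.69), with adjusted p of 0.0185, 0.000221 and 0.0379. The call for CLDN3 was lost in 4 of 8 fits that left out 1 library (FaDu parental 2, FaDu ErlR 1, Cal27 parental 2 or Cal27 ErlR 1), with adjusted p up to 0.0833, and that for OCLN in 7 of 8, without any library but Cal27 ErlR 2, with adjusted p up to 0.131. With 2 libraries per group, samples far from the rest of their group were not tested for.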

How the results depend on the processing

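The counts of junction genes that passed were recomputed under each alternative. In Cal27 AfaR (7), the afatinib interaction (7) and Cal27 AfaR against Cal27 ErlR (6) they stayed within 1.5 times the count, with ranges of 6 to 7, 6 to 7 and 6 to 9 when 1 library was left out. In FaDu AfaR (1) the count was 2 with upper-quartile scaling, ERCC scaling, a minimum of 10 counts, 12 libraries or only the 4 compared, 3 without a filter, and 0 to 4 with 1 library left out. In FaDu ErlR (0) it was 6 with ERCC scaling and 1 without a filter. It was 3 with the fold limit and 3 to 5 with 1 library left out in Cal27 ErlR (5), 9 with ERCC scaling and 3 with the fold limit between the parental lines (5), 6 and 1 to 4 in the erlotinib interaction (3), and 6 and 1 to 3 in FaDu AfaR against FaDu ErlR (3), for ERCC scaling and libraries left out in turn. The cause was not tested.

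ERCC scaling shifted the median of all genes to 0.18 in FaDu AfaR, 0.49 in FaDu ErlR, 0.62 between the parental lines, -0.18 and -0.49 in the afatinib and erlotinib interactions and -0.29 in FaDu AfaR against FaDu ErlR, and to 0.01 and 0.00 in Cal27 AfaR and Cal27 ErlR. Upper-quartile scaling shifted it to 0.12 in Cal27 AfaR against Cal27 ErlR. With ERCC scaling the sign reversed for CLDN7 (0.0091) and OCLN (0.065) in FaDu AfaR, CLDN4 (0.19), EPCAM (0.42) and F11R (0.40) in FaDu ErlR, EPCAM (0.54) and MARVELD3 (0.17) between the parental lines, TJP1 (-0.027) in the afatinib interaction and MARVELD3 (-0.20) in FaDu AfaR against FaDu ErlR. The difference of CLDN4 between FaDu AfaR and FaDu ErlR became 0.050 with upper-quartile scaling, 0.0069 without a filter and 0.010 with a minimum of 10 counts, and that between Cal27 AfaR and Cal27 ErlR 0.032 with upper-quartile scaling, 0.0076 with a minimum of 10 counts and 0.021 with the replicate block.

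Leaving out 1 library reversed values that had not passed. In FaDu AfaR these were CLDN1 (-0.14 to 1.64), CLDN3 (-0.18 to 0.57) and TJP1 (-0.11 to 0.19), in FaDu ErlR CLDN7 (-0.042 to 0.30) and F11R (-0.20 to 0.036), in Cal27 ErlR MARVELD3 (-0.31 to 0.15), and between the parental lines CLDN4 (-0.052 to 0.11). In the afatinib interaction it was TJP1 (-0.045 to 0.27), and in the erlotinib interaction TJP1 (-0.26 to 0.053), CGN (-0.75 to 0.21) and CLDN4 (-0.91 to 0.21). Between FaDu AfaR and FaDu ErlR they were CLDN4 (-0.19 to 0.13) and MARVELD3 (-0.0024 to 0.21), and between Cal27 AfaR and Cal27 ErlR TJP1 (-0.081 to 0.18) and CLDN4 (-0.52 to 0.59).

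Replicate numbers did not pair the samples (correlation of same-numbered deviations -0.249 to 0.246). With the replicate block the counts were 1, 0, 7 and 5 in FaDu AfaR, FaDu ErlR, Cal27 AfaR and Cal27 ErlR, and 2 in FaDu AfaR against FaDu ErlR, where CLDN1 (1.64, adjusted p = 0.0609) was lost. Low counts limit CLDN3, with 1 to 52 counts per library.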
